A study of Mus musculus with 6 samples.

Results

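Kinesins are motor proteins that walk along microtubules, and the array named 40 genes whose symbol begins with Kif and a digit. They were taken by that name pattern and carried 98 probes on 116 spots, out of 37074 gene names and 56605 probes for transcripts in all. RNA came from osteoclasts grown from bone marrow cells of 3 Ano1fl/fl mice, whose Ano1 gene is floxed but left in place, and of 3 Ctsk-Cre;Ano1fl/fl littermates, in which the same floxed gene meets a Cre recombinase driven by the cathepsin K promoter and therefore made in cells that express that osteoclast protease. Both groups were cultured for 5 days with RANKL, the cytokine that drives osteoclast formation, and the methods give 6 to 8 weeks as the age of marrow donors in general. Each mouse gave 1 array, and the question asked here is how the motors of cell division and those of vesicle transport compare between the groups.

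A kinesin turns the energy of ATP into steps along a microtubule, or in some families into the shortening of its end. In dividing cells kinesins push the spindle poles apart, line up chromosomes and build the midzone where the daughter cells separate, and the genes of many of these motors are switched on shortly before mitosis. Other kinesins carry vesicles, endosomes, lysosomes and mitochondria outward from the cell centre in dividing and resting cells alike. Osteoclasts are large multinucleated cells that form when precursors of the monocyte lineage leave the cell cycle and fuse, and they depend on the delivery of lysosomes to the membrane that faces bone.

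The 40 names were sorted by known role. The mitotic list held 12 genes, the transport list 13, and a list of other kinesins 12. A further 3 names belonged to no motor: Kif1bp, which encodes a protein that binds kinesins, Kif16bos, an opposite-strand transcript, and Kif4-ps, a pseudogene. A gene was represented by its brightest probe and tested if the scanner software marked that probe as well above background throughout 1 group or both, and 33 genes met this. The 7 that were not tested were Kif2b of the mitotic list, Kif17 of the transport list, Kif6, Kif7 and Kif26a of the others, and Kif16bos and Kif4-ps. Unless a linear scale or a fold is stated, signals below are log2 of the processed signal after quantile normalization, a brightness without a physical unit. Values of different genes cannot be set against each other because each probe binds with its own strength. Differences are given as Ctsk-Cre;Ano1fl/fl minus Ano1fl/fl, with p-values from limma adjusted over all 20645 genes tested.

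Some facts of the arrays bear on every value. All 6 arrays shared 1 slide and 1 scan day, between 33480 and 34951 of 59305 transcript spots on an array were well above background, and log2 signals correlated at 0.995 to 0.997 within a group and at 0.947 to 0.951 between groups. Ano1 has a single probe, which stayed near background throughout with signals from 3.22 to 3.91, so the labels could not be checked by the deleted gene and every direction is by label. All 12 osteoclast markers, among them Ctsk and Calcr, had higher signals under the label Ctsk-Cre;Ano1fl/fl at a limma adjusted p under 0.05. Of all genes tested, 23.4% did. Sums of the normalized signal over the list, on the linear scale, were 608695 to 688876 on those arrays against 211903 to 229266 on the others. All 12 markers of stromal cells and osteoblasts were higher as well, beside the same 23.4%, with such sums of 57249.6 to 96487.3 against 2166.61 to 3216.73. The direction of the osteoclast markers is opposite to the one the study describes for osteoclasts of this genotype. If the labels had been exchanged, the sign of every difference below would turn, and which of these holds was not tested. The samples were whole cultures, in which fewer cells of a type and less RNA per cell cannot be told apart.

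The motors of the mitotic list were lower on the Ctsk-Cre;Ano1fl/fl arrays. All 11 of the mitotic list that were tested passed limma at an adjusted p under 0.05 in that direction, where 29% of all genes tested did. All 11 were lower by more than 2-fold, against 7.19% of all genes, and in none did the groups overlap, a separation in either direction that 64% of all genes showed. Their median log2 difference was -1.97, and the median over all genes tested was -0.06. All 11 were well above background on all 6 arrays, so that none entered the test through 1 group alone. Kif2a, which has a role at the spindle pole as well as in neurons, was placed with the other kinesins and did not pass, with a difference of 0.09 (limma adjusted p = 0.551). The plot of kinesin signals on each array shows these genes beside the transport list.

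**Figure D1:**
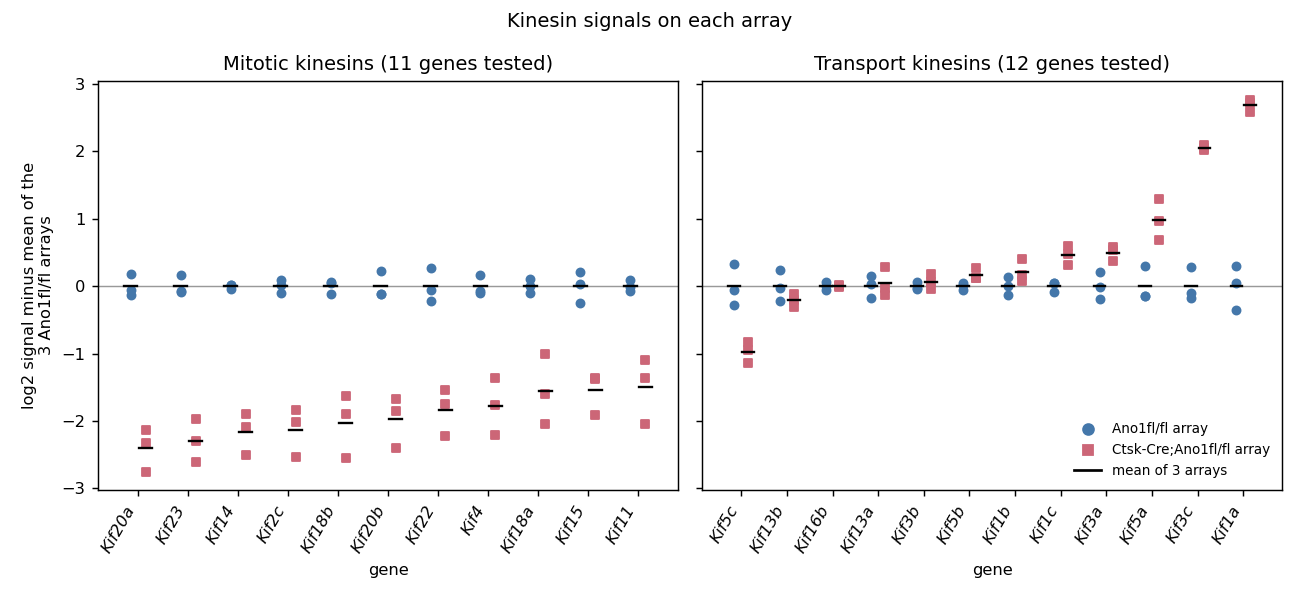
Log2 signal of each tested mitotic (left) and transport (right) kinesin on each array, minus the mean of the 3 Ano1fl/fl arrays for that gene; circles are Ano1fl/fl arrays, squares Ctsk-Cre;Ano1fl/fl arrays and bars the mean of 3 arrays. All squares of the 11 mitotic genes lie below the circles, with mean differences from -2.41 to -1.50, while the transport genes run from -0.97 to 2.69, the upper end being Kif1a, which no Ano1fl/fl array read well above background.

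The largest difference of the mitotic list was that of Kif20a, a motor that carries the chromosomal passenger complex to the spindle midzone. Its signals were 13.01, 12.78 and 12.70 with Ano1fl/fl and 10.50, 10.08 and 10.69 with Ctsk-Cre;Ano1fl/fl. Every Ctsk-Cre;Ano1fl/fl array lay more than 2 log2 units below every Ano1fl/fl array, with a log2 difference of -2.41 ± 0.17 (SE, limma adjusted p = 0.000148), which is 5.30-fold lower. Kif23, which forms the centralspindlin complex together with the protein of Racgap1, was read by its brightest probe at mm9 chromosome 9 from 61767733 to 61768853. The signals of that probe were 11.43, 11.20 and 11.19 with Ano1fl/fl and 8.98, 8.67 and 9.30 with Ctsk-Cre;Ano1fl/fl. The groups were again far apart, by a log2 difference of -2.29 ± 0.17 (SE, limma adjusted p = 0.000163). Kif14, which works with citron kinase in the closing furrow, had signals of 9.81, 9.80 and 9.74 with Ano1fl/fl and 7.70, 7.28 and 7.88 with Ctsk-Cre;Ano1fl/fl from a probe at mm9 chromosome 1 from 138426006 to 138426065. The Ano1fl/fl arrays were nearly level with each other, and the difference came to -2.16 ± 0.16 (SE, limma adjusted p = 0.000144). Kif20b, another motor of the last steps of cell separation, gave 12.03, 11.69 and 11.69 with Ano1fl/fl and 9.94, 9.40 and 10.13 with Ctsk-Cre;Ano1fl/fl. It did not overlap between groups either, and showed a log2 difference of -1.97 ± 0.21 (SE, limma adjusted p = 0.000577). These 4 genes act at the spindle midzone or in cytokinesis, and they were between 3.93-fold and 5.30-fold lower.

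Motors that act on chromosomes and microtubule ends fell as well. Kif2c does not walk but takes tubulin off microtubule ends and so releases wrong attachments at the kinetochore. Its probe at mm9 chromosome 4 from 116832904 to 116832963 gave 9.91, 9.84 and 9.72 with Ano1fl/fl and 7.80, 7.30 and 7.99 with Ctsk-Cre;Ano1fl/fl. Kif18b, which shortens the astral microtubules, had signals of 9.36, 9.35 and 9.18 with Ano1fl/fl and 7.40, 6.74 and 7.66 with Ctsk-Cre;Ano1fl/fl. In both genes the array of Ctsk-Cre;Ano1fl/fl replicate 2 was the lowest, and the groups lay apart, with a log2 difference of -2.13 ± 0.18 (SE, limma adjusted p = 0.000278) for Kif2c and a log2 difference of -2.03 ± 0.23 (SE, limma adjusted p = 0.000823) for Kif18b. Kif18a, which damps the movements of chromosomes at the spindle equator, had signals of 9.05, 8.95 and 8.85 with Ano1fl/fl and 7.35, 6.90 and 7.94 with Ctsk-Cre;Ano1fl/fl. Of the 11 genes it came with the smallest gap between groups, 0.90 between the lowest Ano1fl/fl and the highest Ctsk-Cre;Ano1fl/fl array, and it had a log2 difference of -1.55 ± 0.25 (SE, limma adjusted p = 0.00331). The chromokinesins Kif22 and Kif4 bind chromosome arms. For Kif22 the probe at mm9 chromosome 7 from 134171293 to 134171352 read 13.64, 13.32 and 13.16 with Ano1fl/fl and 11.62, 11.15 and 11.84 with Ctsk-Cre;Ano1fl/fl. For Kif4, on mm9 chromosome X from 97922085 to 97922145, the signals were 9.85, 9.60 and 9.57 with Ano1fl/fl and 7.91, 7.47 and 8.32 with Ctsk-Cre;Ano1fl/fl. Both fell, Kif22 by 1.84 and Kif4 by 1.77 on the log2 scale, with standard errors of 0.21 and 0.22 (limma adjusted p = 0.000766 and 0.00105).

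Kif11 and Kif15 keep the poles of the spindle apart, Kif11 by sliding antiparallel microtubules and Kif15 as a motor that can stand in for it. The Kif11 probe at mm9 chromosome 19 from 37495755 to 37495814 gave 10.19, 10.09 and 10.02 with Ano1fl/fl and 8.74, 8.06 and 9.01 with Ctsk-Cre;Ano1fl/fl. Kif15, at mm9 chromosome 9 from 122927298 to 122927357, gave 9.11, 9.39 and 9.57 with Ano1fl/fl and 8.002, 7.45 and 7.98 with Ctsk-Cre;Ano1fl/fl. These were the smallest differences of the list, -1.50 ± 0.24 for Kif11 and -1.55 ± 0.19 for Kif15 (SE, limma adjusted p = 0.00294 and 0.00103), and still 2.83-fold and 2.92-fold. Kif2b, the remaining member, is a depolymerase like Kif2c, and its single probe was not well above background on enough arrays to be tested.

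**Figure D2:**
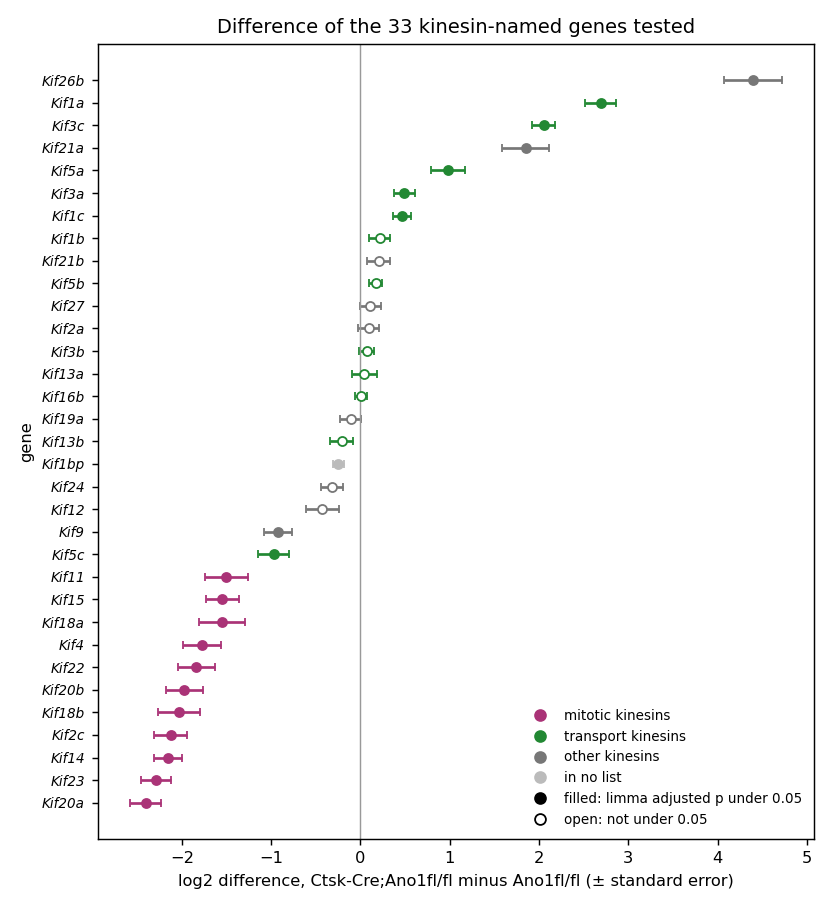
Log2 difference, Ctsk-Cre;Ano1fl/fl minus Ano1fl/fl, with its standard error from limma for each of the 33 genes tested, ordered by size and coloured by list; filled points had an adjusted p under 0.05. The 11 mitotic kinesins occupy the lower end, from -2.41 to -1.50, and Kif26b, at a measured 4.40 against arrays on which it was not well above background, stands at the other end.

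The arrays of a group also differed among themselves in the same order for most mitotic motors. The array of Ctsk-Cre;Ano1fl/fl replicate 2 was the lowest of its group for 11 of 11 genes, where it was the lowest for 32.5% of all genes tested, and replicate 3 was the highest for 10 of 11, against 31.3%. Among the Ano1fl/fl arrays, replicate 1 was the highest for 10 of 11 genes, against 38.7%, and replicate 3 the lowest for 9 of 11, against 36.6%. These counts are over genes that share the same RNA samples, so they describe the 6 arrays. Taken as the median over the 11 genes relative to the Ano1fl/fl mean, the arrays stood at 0.10, -0.01 and -0.10 for Ano1fl/fl and at -1.86, -2.40 and -1.63 for Ctsk-Cre;Ano1fl/fl. Without the array of replicate 2 the median difference was -1.76, and all 11 genes still passed.

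The probes of the mitotic list that were bright enough moved the same way. The list held 27 probes, of which 22 were tested, and 22 of 22 were lower at an adjusted p under 0.05 in limma over 31848 probes, where 30.6% of all probes were lower. Of these, 1 probe of Kif14 and 1 of Kif23 were not well above background on any Ctsk-Cre;Ano1fl/fl array and so entered through the group where they were high. Without them 20 of 20 were lower, with a median of -2.02, against -0.09 for all probes. The 20 still include another probe of Kif14, a probe of Kif15 and a probe of Kif2c that were well above background on only some Ctsk-Cre;Ano1fl/fl arrays. They too met the filter only through the Ano1fl/fl arrays, where they were high. In the 6 genes with several tested probes every probe passed in the same direction. Probes of Kif23 differed most from each other, with -0.66 for one of them (limma adjusted p = 0.0165) and -2.29 and -2.40 for another 2, while the fourth, the dim one, was at least 1.95-fold lower. The dim probe of Kif14 was at least 2.67-fold lower. Kif2c was read at -2.13 by one probe and at -3.04 by another, which was well above background on 2 Ctsk-Cre;Ano1fl/fl arrays. The 4 tested probes of Kif15 ran from -2.33 to -1.55, and the probe at -2.33 was likewise well above background on 2 arrays of that group.

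**Figure D3:**
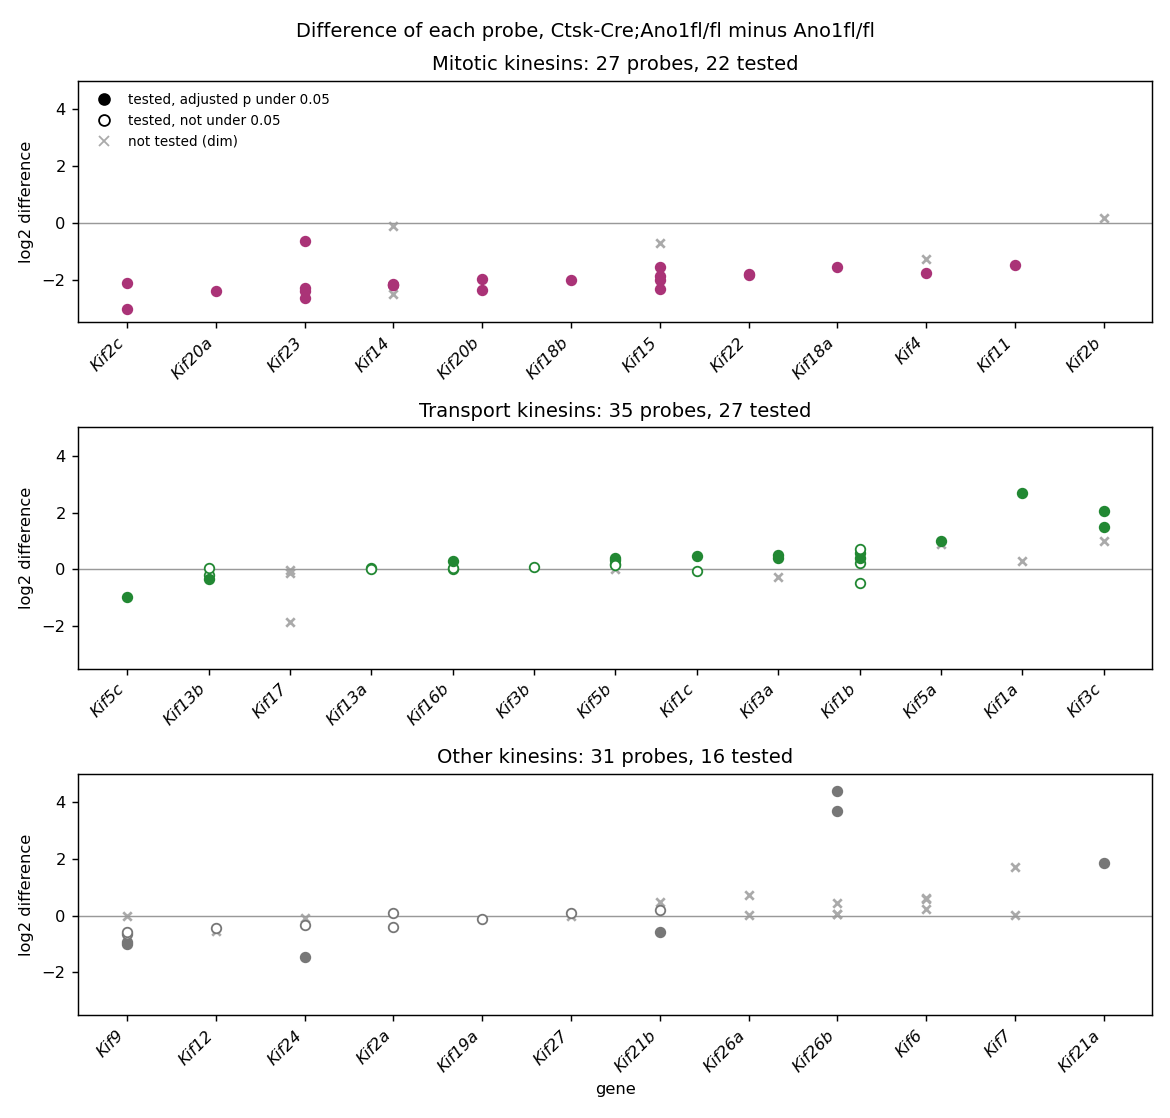
Log2 difference, Ctsk-Cre;Ano1fl/fl minus Ano1fl/fl, of every probe of the mitotic (27 probes), transport (35) and other (31) kinesins; filled circles were tested with an adjusted p under 0.05, open circles were tested and not under 0.05, and crosses were too dim to test. All 22 filled circles of the mitotic genes lie below 0, whereas probes of transport genes such as Kif1b lie on both sides.

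Since the mitotic motors moved together, their promoters were read from RefSeq on build GRCm38.p6, in a table with 250 bases before and 50 bases from each transcription start. It held 33 of the 40 names, among them 11 of the 12 mitotic and 10 of the 13 transport genes. Missing were Kif20a, Kif5a, Kif5b, Kif13b, Kif19a, Kif21b and Kif4-ps. Promoters of genes used in mitosis are known for a short element called CHR, the binding place of the MuvB group of cell cycle regulators, often with CCAAT boxes, which bind the factor NF-Y, further upstream. The letters TTTGAA or, on the other strand, TTCAAA were found in the promoters of 9 of the 11 mitotic genes (81.8%) and in 17.9% of all 32851 promoters. They were found in 1 of 10 transport genes, Kif1a, and in 2 of 10 of the other kinesins. A gene counts here if any of its listed starts has the letters, while the share over all counts each promoter once. A match is a description of letters and not of binding, and the absence of a match covers this window only.

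The following windows hold 80 bases before and 30 bases from the start and were picked after the matches had been seen, from mitotic genes with a CHR match close to the start. Capitals mark CHR letters and CCAAT letters on either strand. The windows lie at chr19:37376302-37376411, plus strand for Kif11, chr9:122951001-122951110, plus strand for Kif15, chr7:127042391-127042500, minus strand for Kif22, chr9:61946770-61946879, minus strand for Kif23, chrX:100625985-100626094, plus strand for Kif4, chr11:102925095-102925204, minus strand for Kif18b and chr19:34922278-34922387, plus strand for Kif20b, all on GRCm38.p6 and written 5′ to 3′ on the strand of the gene.
Kif11: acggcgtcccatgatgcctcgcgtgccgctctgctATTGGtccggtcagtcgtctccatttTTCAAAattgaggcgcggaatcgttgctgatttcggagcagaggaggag
Kif15: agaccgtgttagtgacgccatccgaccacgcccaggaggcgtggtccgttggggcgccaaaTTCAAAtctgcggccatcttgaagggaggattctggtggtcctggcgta
Kif22: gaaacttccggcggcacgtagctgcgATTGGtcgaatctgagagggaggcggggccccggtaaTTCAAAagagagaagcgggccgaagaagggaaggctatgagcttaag
Kif23: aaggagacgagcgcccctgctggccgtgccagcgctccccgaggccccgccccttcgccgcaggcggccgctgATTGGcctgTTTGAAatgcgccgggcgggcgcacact
Kif4: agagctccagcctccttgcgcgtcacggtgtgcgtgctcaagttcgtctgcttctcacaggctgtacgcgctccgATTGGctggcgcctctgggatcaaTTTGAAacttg
Kif18b: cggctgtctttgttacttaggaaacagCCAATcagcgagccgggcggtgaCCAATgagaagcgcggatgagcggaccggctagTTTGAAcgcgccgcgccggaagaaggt
Kif20b: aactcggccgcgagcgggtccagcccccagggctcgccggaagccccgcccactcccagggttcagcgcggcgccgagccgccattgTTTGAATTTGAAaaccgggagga

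Counted from the start, the CHR letters began at -19 in Kif11 and Kif15, at -17 in Kif22, at 2 in Kif23, at 3 in Kif18b, at 7 and again at 13 in Kif20b, and at 19 in Kif4. A CCAAT box stood upstream of them in 5 of these 7 windows, at -45 in Kif11, at -54 in Kif22, at -7 in Kif23, at -5 in Kif4 and at both -53 and -30 in Kif18b. The matches of Kif2c and Kif14 lay farther out, at -103 and -228, and Kif18a and Kif2b had none. A variant of the CHR, TTTAAA, was searched as well. It was found in 2 of 11 mitotic genes, at -42 in Kif14 and at -234 in Kif2c. Of all promoters 13.2% held it, and 0 of 10 transport genes did. CCAAT or ATTGG was present in 7 of 11 mitotic genes, against 37.4% of all promoters and 3 of 10 transport genes. The letters were also found in 15 of 22 spindle and kinetochore genes, 11 of 16 DNA replication genes and 10 of 20 cargo adaptors. For contrast, the same window of Kif3c, the transport motor with the largest rise among those above background in both groups, lies at chr12:3365052-3365161, plus strand, and holds neither motif.
Kif3c: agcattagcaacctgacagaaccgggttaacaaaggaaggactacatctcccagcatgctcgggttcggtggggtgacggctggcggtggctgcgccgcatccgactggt

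**Figure D4:**
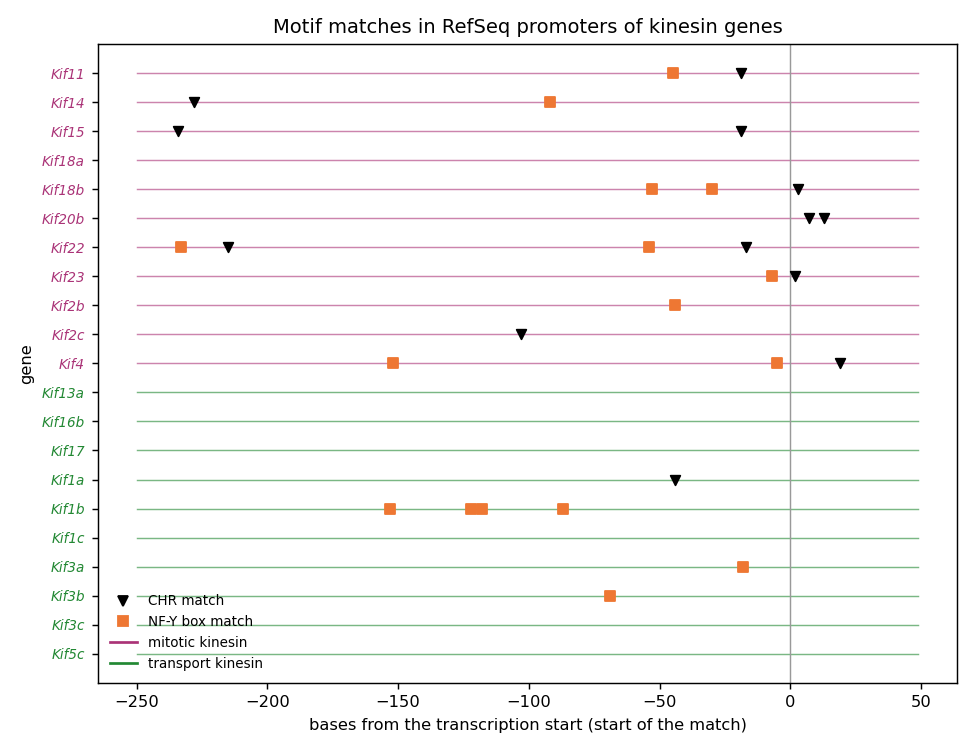
Start of each CHR match (triangles) and NF-Y box match (squares, the letters of the CCAAT box) on either strand, in bases from the transcription start, in the RefSeq promoters of 11 mitotic and 10 transport kinesin genes. CHR matches are present in 9 mitotic genes, 7 of them within 20 bases of the start, and in 1 transport gene.

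Genes that work beside the mitotic motors were lower too, where 29% of all genes fell and 23.4% rose. Of 14 partners at the central spindle and in cytokinesis, 11 fell, none rose and 3 did not pass, with a median of -1.78. The largest falls were those of Plk1, a mitotic kinase that binds Kif20a, and Anln, the scaffold protein of the furrow, with differences of -2.53 and -2.41 (limma adjusted p = 0.000182 and 4.84e-05). Rhoa and Sept9, which serve the cytoskeleton outside division as well, had differences of -0.03 and -0.05 and did not pass. All 27 tested genes of the spindle and kinetochore were lower, with a median of -1.66, led by Cenpf at -2.69 and Ccnb2 at -2.30 (limma adjusted p = 0.000114 and 0.000228). Their arrays took the same order as those of the kinesins, Ctsk-Cre;Ano1fl/fl replicate 2 being the lowest of its group for 26 of 27. In the DNA replication genes that array was the lowest for 21 of 21 and replicate 3 the highest for 18 of 21. Among the Ano1fl/fl arrays replicate 2 was the highest for 18 of 21 of those genes, unlike in the kinesins. Over all genes these shares were 32.5%, 31.3% and 31.8%. The letters TTTGAA or TTCAAA were present in 14 of 22 spindle genes and in 7 of 10 central spindle partners that had a promoter in the table.

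DNA replication genes differed by less. Of 21 tested, 18 fell, where 29% of all genes did, none rose and 3 did not pass, and their median of -0.71 compares with -1.97 for the mitotic motors. Rrm1, a subunit of ribonucleotide reductase, and Pola1, the catalytic subunit of the polymerase that starts new strands, fell most, by 1.35 and 1.33 on the log2 scale (limma adjusted p = 0.00028 and 0.000461). Their promoters held the CHR letters in 1 of 16 genes, and the E2F-type letters GCGGGAA or TTCCCGC in 8 of 16, where 4.6% of all promoters and 0 of 11 mitotic kinesins had them. Of 22 regulators of these genes, 14 fell and 2 rose. Foxm1, which activates genes of the late cell cycle, and E2f7, a repressor of E2F targets, fell most, with -1.95 and -1.54, and E2f3 and Rb1 rose, with 0.54 and 0.33 (limma adjusted p = 0.000211, 0.000179, 0.00657 and 0.0439). Among 13 inhibitors and kinases of the G1 phase and D cyclins, 8 fell, where 29% of all genes did, and 3 rose, where 23.4% did. Ccnd1 had the largest fall at -2.45 and the inhibitor Cdkn2c the next at -1.69 (limma adjusted p = 0.000634 and 0.000273). The inhibitors Cdkn2b and Cdkn2a rose with 2.67 and 2.20, and the D cyclin Ccnd2 with 2.01 (limma adjusted p = 0.000338, 0.000795 and 0.00131).

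**Figure D5:**
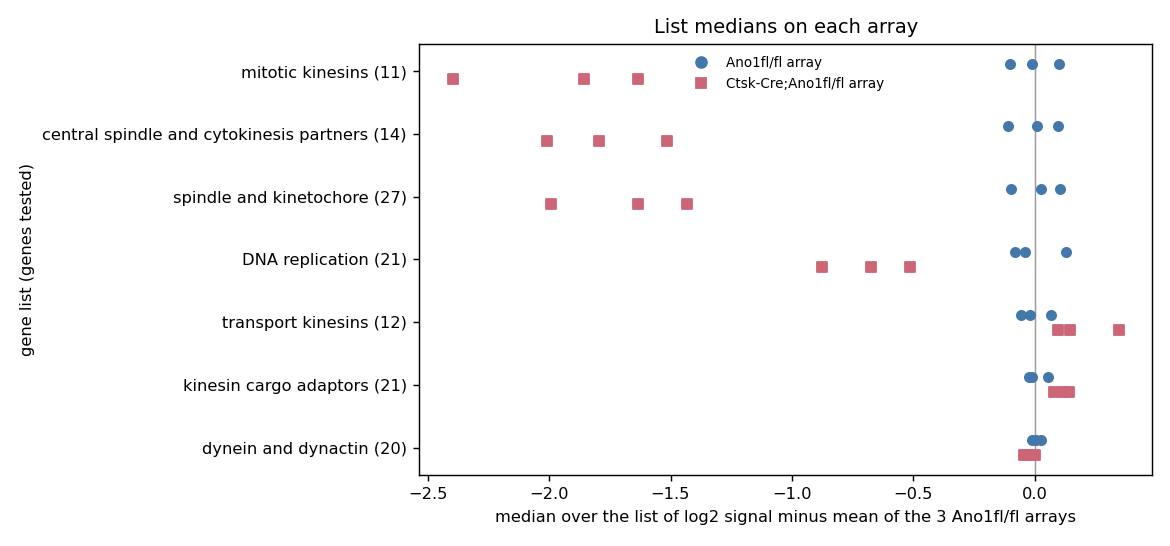
Median over each gene list of the log2 signal minus the Ano1fl/fl mean, 1 point for each array (circles Ano1fl/fl, squares Ctsk-Cre;Ano1fl/fl), with the number of genes tested in brackets. The Ctsk-Cre;Ano1fl/fl arrays of the mitotic kinesins sit at -2.40, -1.86 and -1.63, those of the DNA replication genes between -0.88 and -0.51, and those of the transport kinesins between 0.09 and 0.35.

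The transport motors went both ways. Of the 12 tested, 5 rose, where 23.4% of all genes tested did, 1 fell, where 29% did, and 6 did not pass. More than 2-fold rises were found for 2 of them, against 9.88% of all genes, and no fall was of that size, against 7.19%. The median log2 difference was 0.19. Groups did not overlap for 7 of the 12, and 64% of all genes showed this. One of the 5 risers, Kif1a, entered the test only through the arrays where it was high. Without it, 4 of 11 rose.

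Kinesin-2 is a heterodimer of Kif3a with Kif3b or Kif3c and serves endosomes and cilia, and its 3 motor genes differed from each other. Kif3c, on mm9 chromosome 12 from 3403902 to 3403961, had signals of 9.01, 8.62 and 8.55 with Ano1fl/fl and 10.74, 10.82 and 10.77 with Ctsk-Cre;Ano1fl/fl. The Ctsk-Cre;Ano1fl/fl arrays lay within 0.1 of each other and well above the others, with a log2 difference of 2.05 ± 0.13 (SE, limma adjusted p = 9.36e-05), or 4.15-fold. A second tested probe gave a difference of 1.51 (limma adjusted p = 0.00025). Kif3a, the shared partner, rose less, from 10.49 ± 0.20 (SD, n = 3) with Ano1fl/fl to 10.98 ± 0.11 (SD, n = 3) with Ctsk-Cre;Ano1fl/fl, with a difference of 0.49 (limma adjusted p = 0.0159). Kif3a did not pass without Ctsk-Cre;Ano1fl/fl replicate 2, at 0.45 (limma adjusted p = 0.0514), and with all probes averaged, at 0.21 (limma adjusted p = 0.053). Kif3b had 8.36 ± 0.06 (SD, n = 3) with Ano1fl/fl and 8.42 ± 0.11 (SD, n = 3) with Ctsk-Cre;Ano1fl/fl, overlapped between groups and did not pass, with a difference of 0.07 (limma adjusted p = 0.521). Kifap3, the third subunit that links the pair to cargo, fell by 0.49 ± 0.08 on the log2 scale (SE, limma adjusted p = 0.0028).

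Kinesin-1 carries lysosomes, mitochondria and RNA granules on 1 of 3 heavy chains. Kif5b, the heavy chain found in all tissues, had signals of 13.75, 13.67 and 13.78 with Ano1fl/fl and 13.86, 14.01 and 13.85 with Ctsk-Cre;Ano1fl/fl. The groups lay apart by only 0.07, and the difference of 0.17 ± 0.08 (SE) did not pass (limma adjusted p = 0.107). Of its 4 tested probes, those reading 0.32 and 0.38 passed and those reading 0.14 and 0.17 did not. Kif5a, known mainly from neurons, rose from 7.67 ± 0.25 (SD, n = 3) with Ano1fl/fl to 8.65 ± 0.30 (SD, n = 3) with Ctsk-Cre;Ano1fl/fl, by 0.98 (limma adjusted p = 0.00664), a call lost with all probes averaged, at 0.94 (limma adjusted p = 0.0608). Kif5c was the single transport motor that fell, from 8.92 ± 0.31 (SD, n = 3) with Ano1fl/fl to 7.95 ± 0.16 (SD, n = 3) with Ctsk-Cre;Ano1fl/fl, with a log2 difference of -0.97 ± 0.17 (SE, limma adjusted p = 0.00444). The heavy chains gave a rise, a fall and a gene that did not pass.

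Kif1a, a carrier of synaptic vesicle precursors, had signals of 1.98, 2.39 and 2.64 with Ano1fl/fl and 5.10, 5.06 and 4.91 with Ctsk-Cre;Ano1fl/fl. None of the Ano1fl/fl arrays read it well above background and all 3 of the other group did, so that it was at least 2.08-fold higher (limma adjusted p = 9.21e-05, from a measured difference of 2.69). That difference was 0.50 with normexp background correction and 0.80 from the median spot brightness, and it kept its direction and passed in both. Kif1b, whose products move mitochondria and vesicles, had signals of 11.27, 11.00 and 11.14 with Ano1fl/fl and 11.30, 11.54 and 11.21 with Ctsk-Cre;Ano1fl/fl. The groups overlapped and the difference of 0.21 did not pass (limma adjusted p = 0.169), while its 5 probes ran from -0.50 to 0.73 and 2 of them passed as higher. Kif1c, which is known to act at podosomes, the adhesion sites of macrophages and osteoclasts, had signals of 11.44, 11.44 and 11.30 with Ano1fl/fl and 11.88, 11.99 and 11.70 with Ctsk-Cre;Ano1fl/fl. It rose, with a log2 difference of 0.46 ± 0.10 (SE, limma adjusted p = 0.00857), by its brightest probe at mm9 chromosome 11 from 70543754 to 70543813, and its other probe had a difference of -0.06 that did not pass (limma adjusted p = 0.855). With all its probes averaged Kif1c had 0.20 and did not pass (limma adjusted p = 0.282).

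Kif13a, Kif13b and Kif16b, of the kinesin-3 family, did not pass by their brightest probes. Kif13b had signals of 12.70, 12.24 and 12.43 with Ano1fl/fl and 12.34, 12.25 and 12.15 with Ctsk-Cre;Ano1fl/fl. These overlapped, with a difference of -0.21 ± 0.13 (SE, limma adjusted p = 0.215). Kif13a, which moves recycling endosomes, had a difference of 0.04, and Kif16b, which binds early endosomes, of 0.00, with standard errors of 0.14 and 0.07 (limma adjusted p = 0.807 and 0.976). Other probes of these genes did pass. For Kif16b 1 of the 3 tested was higher with 0.30, and for Kif13b 1 of the 3 was lower with -0.35 (limma adjusted p = 0.0155 and 0.0184). That Kif13b probe was well above background on 2 Ctsk-Cre;Ano1fl/fl arrays and met the filter only through the Ano1fl/fl arrays. A p that misses the threshold does not show that the levels were equal. Kif17 was left out by the filter on dim probes. Its brightest probe gave 3.68, 4.96 and 4.54 with Ano1fl/fl and 2.94, 1.71 and 2.94 with Ctsk-Cre;Ano1fl/fl. It was well above background on 2 arrays of the first group and on none of the second.

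Probes of the same transport gene did not always give the same call. Of 27 tested, 12 rose, where 21.8% of all probes did, 2 fell, where 30.6% did, and 13 did not pass, and 11 of 26 rose without the probe of Kif1a. In 5 of the 8 genes with several tested probes some passed and others did not, against 0 of 6 mitotic genes. No test was made of that contrast, and probes of 1 gene can read different transcripts.

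Partners and tracks of the transport motors had members that rose and members that fell, in lists to be read beside the 23.4% of all genes that rose and the 29% that fell. Of 21 tested cargo adaptors 7 rose, 4 fell and 10 did not pass, with a median of 0.10. Plekhm1, a lysosome adaptor whose loss causes osteopetrosis, and Arl8a, a small GTPase that recruits kinesin-1 to lysosomes, rose most, with 0.71 and 0.56 (limma adjusted p = 0.000391 and 0.00113). Rabgap1 and the mitochondrial GTPase Rhot2 fell most, by 0.63 and 0.48 on the log2 scale (limma adjusted p = 0.01 and 0.00275). Of 20 genes of dynein and dynactin, the motor that walks the opposite way, 4 rose, 3 fell and 13 did not pass, with a median of -0.03. The light intermediate chain Dync1li1 and the light chain Dynlt3 rose, with 0.96 and 0.70, and Nde1, which serves dynein in mitosis as well, and Dynll1 fell, with -0.81 and -0.25 (limma adjusted p = 0.000351, 0.000787, 0.000351 and 0.0188). Of 14 tubulins, 3 rose and 4 fell, with Tubg2 and Tubb3 at 1.87 and 0.80 and Tuba8 and Tubb4b at -1.50 and -0.67 (limma adjusted p = 0.000125, 0.00695, 0.00153 and 0.000948).

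Among the other kinesins, 2 of the 9 tested rose, 1 fell and 6 did not pass, beside 23.4% of all genes that rose and 29% that fell. Both that rose, Kif26b and Kif21a, entered the test only through the arrays where they were high, and without them 0 of 7 rose. Kif26b, an atypical kinesin that does not move and takes part in Wnt5a signalling in embryonic tissue, had signals of 2.27, 1.76 and 2.52 with Ano1fl/fl and 7.16, 6.52 and 6.05 with Ctsk-Cre;Ano1fl/fl. This brightest probe was well above background on the Ctsk-Cre;Ano1fl/fl arrays alone and at least 6.11-fold higher there (limma adjusted p = 0.000151, from a measured difference of 4.40). The difference was 1.25 with normexp and 1.86 from the median brightness. Of its 5 probes, 2 were tested, both above background in that group alone and at least 6.11-fold and 2.96-fold higher, and the other 3 were too dim. One of those 3 was well above background on 1 array of each group, with signals that overlapped and a difference of 0.07. Stromal markers moved with the group as given above, Col1a1 by 6.12 on the same scale, and their part in the Kif26b result was not tested. Kif21a, which restrains microtubule growth at the cell cortex, had signals of 2.69, 1.98 and 2.79 with Ano1fl/fl and 3.97, 4.46 and 4.59 with Ctsk-Cre;Ano1fl/fl. It too was above background in 1 group alone and at least 1.29-fold higher (limma adjusted p = 0.00187, from a measured difference of 1.85), with 0.27 under normexp.

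Kif9, a kinesin of motile cilia, fell by 0.92 ± 0.16 on the log2 scale (SE, limma adjusted p = 0.00363), and 2 of its 4 tested probes passed. Kif24, which works at the centriole, did not pass by its brightest probe, with -0.32 (limma adjusted p = 0.0671), while its other tested probe, which names the RefSeq transcript, read -1.46 (limma adjusted p = 0.000723). The log2 signals of the latter were 8.32, 8.28 and 8.01 with Ano1fl/fl and 6.75, 6.46 and 7.03 with Ctsk-Cre;Ano1fl/fl, where replicate 2 was again the lowest. Kif21b, a relative of Kif21a, had 0.20 by its brightest probe (limma adjusted p = 0.234) and -0.58 by another (limma adjusted p = 0.0151). Kif2a, the depolymerase of the spindle pole and of neurons, had 0.09, Kif27 of cilia 0.11, Kif19a of cilia -0.11 and Kif12 -0.43, and none of these passed (limma adjusted p = 0.551, 0.463, 0.478 and 0.0999). Kif1bp, no motor itself, fell by 0.25 on the log2 scale (limma adjusted p = 0.0178), a call that was lost without any 1 of 4 of the arrays, at an adjusted p of 0.051 to 0.0564, and with the median of its tested probes, at -0.10 (limma adjusted p = 0.449).

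Kinesins whose symbols do not follow the Kif and digit pattern were set beside the members. Those of division were again lower. Cenpe, the kinetochore motor, had signals of 13.79, 13.52 and 13.61 with Ano1fl/fl and 12.02, 11.60 and 12.41 with Ctsk-Cre;Ano1fl/fl, with a log2 difference of -1.62 ± 0.21 (SE, limma adjusted p = 0.00124). Kifc1, a minus-end motor that focuses spindle poles, gave 7.53, 7.66 and 7.48 with Ano1fl/fl and 6.02, 5.51 and 5.84 with Ctsk-Cre;Ano1fl/fl, with a log2 difference of -1.77 ± 0.14 (SE, limma adjusted p = 0.000211). Its close copy Kifc5b had a log2 difference of -2.05 ± 0.38 (SE, limma adjusted p = 0.00557). The Kifc5b probe was well above background on 2 Ctsk-Cre;Ano1fl/fl arrays and entered the test only through the Ano1fl/fl arrays, where it was high. The array probes may not tell the copies apart. Kifc2 of neurons fell by 0.37 on the log2 scale (limma adjusted p = 0.0261), and Kifc3 had -0.04 and did not pass (limma adjusted p = 0.807). Among the light chains that couple kinesin-1 to cargo, Klc2 rose by 0.58 (limma adjusted p = 0.00261) and Klc3, whose brightest probe was above background on the Ctsk-Cre;Ano1fl/fl arrays alone, was at least 2.94-fold higher (limma adjusted p = 0.00657). Klc1 and Klc4 had differences of 0.00 and 0.09 and did not pass (limma adjusted p = 0.983 and 0.528).

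Markers of other cells of marrow cultures are given here, to be read beside the 29% of all genes that were lower and the 23.4% that were higher. Of 8 B cell markers 7 were higher and 1 lower. Their summed signal, on the linear scale like all sums here, was 88160.6 to 118905 on the Ctsk-Cre;Ano1fl/fl arrays against 38043.8 to 42535. Of 8 mast cell and basophil markers 7 were lower, with sums of 1590.24 to 4611.01 against 8618.29 to 10828.2. Of 12 markers of neutrophils and their precursors 7 were lower and 3 higher, with sums of 289910 to 340741 against 382780 to 400675, the largest fall being that of Retnlg, by 3.68 on the log2 scale, and the largest rise that of Lcn2, with 1.75. Of 12 macrophage markers 5 were lower, 2 higher and 5 did not pass, while their sum was higher, at 718226 to 814906 against 607270 to 637618. Both erythroid markers that were tested were lower, out of 8. Of 7 tested markers of T and NK cells, 3 were higher and 2 lower. Of 6 tested for dendritic cells, 2 were higher and 1 lower, and of 6 tested for endothelial cells, 1 was higher and 2 lower. Ctsk-Cre;Ano1fl/fl replicate 2 had the lowest sum of its group and replicate 3 the highest, the order of the mitotic motors in that group, for the B cell, neutrophil, erythroid and T and NK cell lists, and not for the other 6 lists. Among the Ano1fl/fl arrays, where the mitotic motors were mostly highest on replicate 1 and lowest on replicate 3, of these 4 lists the erythroid sums took that order, the B cell and T and NK cell sums took the reverse, and the neutrophil sum was highest on replicate 3. The part of any cell type in the kinesin differences was not tested.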

How the data were processed

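RNA of 6 osteoclast cultures, 3 for each genotype, was labelled with Cy3 and read on Agilent one-colour mouse arrays. The deposited files hold intensities per spot on a linear scale, which the authors obtained with Agilent Feature Extraction 10.7.1.1 (version per the submitters' processing notes), and the processed signal used here has background and trends within the array removed by that software. The deposited series matrix holds 62973 intensities per array that equal the median spot brightness, and it was used as an alternative. Probe positions are those of the array files on mm9. Whether a probe lies in an exon or an untranslated region was not analysed here.

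Outlier and control spots were left out, as were 14 probes with a missing value. The processed signals were log2 transformed and quantile normalized, the algorithm that the methods name, with limma 3.58.1 in R 4.3.3, and spots of a probe were averaged. The probe with the highest mean stood for a gene. A probe was well above background on an array when at least 0.5 of its spots were. Groups were compared with limma's linear model and Benjamini-Hochberg adjustment, over 20645 genes and, separately, over 31848 probes, with a threshold of 0.05. The fit was tested on simulated data. Where a whole group did not read a gene above background, the fold is a bound: each such array enters with its own dimmest signal that the software still marked as well above background, or with the probe's signal if that is higher. The number of arrays limits the precision.

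The genes and all lists were chosen with earlier results of these data known, and the lists were set by hand from general knowledge. Values per array are given for kinesins that passed with more than 2-fold and groups that did not overlap, and for the 4 brightest transport kinesins. Of each pathway list the 2 largest rises and 2 largest falls are named, with every kinesin outside the name pattern. Rhoa, Sept9, Ccnd2, Retnlg, Lcn2 and Col1a1 were added after their values were seen. So were per-array values for Cenpe, Kifc1, Kif17 and the second Kif24 probe. Promoter sequences are from RefSeq on GRCm38.p6, matched by symbol or synonym. Alternatives changed 1 choice at a time: scaling to the 75th percentile, normexp with an offset of 50, the series matrix, other filters on dim probes, other rules for genes with several probes, other limma settings, the methods' t-test, a replicate block, other thresholds and leaving out each array.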

Additional observations from a re-analysis of the deposited data

How the results depend on the processing

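The 11 mitotic kinesins stayed lower past the threshold under every alternative run, and their median difference ran from -2.13 to -1.76. For the transport kinesins the median ran from 0.12 to 0.24. Their 5 rises became 2 when all probes of a gene were averaged and 2 when more than 2-fold was asked for, and that threshold left 0 of the single fall. When an array was left out, the count of transport falls ran from 1 to 2. It was 2 without Ano1fl/fl replicate 1, where Kif17 entered the genes tested, which then numbered 13 of the list. Of 525 values of single kinesin genes under the alternatives, 505 kept direction and side of the threshold, 11 lost the threshold, 9 gained it and 0 turned. Those that lost it were values of Kif1bp, Kif1c, Kif3a and Kif5a, and those that gained it were of Kif24, Kif5b and Kif12. The cause was not tested. The methods' t-test after Benjamini-Hochberg gave 11 mitotic falls, 1 transport fall and 5 transport rises. With 75th percentile scaling the median over all genes was -0.12 in place of -0.06.

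Deviations from the group mean on same-numbered arrays had correlations of 0.0044, -0.062 and -0.081 between the groups. Those of differently numbered arrays ran from -0.12 to 0.18. With 3 arrays a group, such values neither show nor exclude a pairing of the mice by number or litter. With the replicate block 11 mitotic kinesins were lower, and 1 transport kinesin was lower and 5 were higher, and of the single kinesins only Kif1bp lost its call (limma adjusted p = 0.0594), while genes past the threshold fell from 5987 to 5079 lower and from 4839 to 4200 higher. Dim probes limit the folds of Kif1a, Kif21a and Kif26b, whose differences were 0.50, 0.27 and 1.25 with normexp.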
